A study of Homo sapiens with 8 samples.

Results

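Genes that encode proteins secreted by hepatocytes were examined in m6A-seq data of HepG2 cells, namely ALB, AFP, APOB, APOA1, FGB, FGA, FGG, SERPINA1 and TF. The members were all listed m6A peaks that overlapped the windows of these 9 genes (hg19, 154547 bases in all) by at least 1 base. This gave 7 of the 30765 listed peaks, or 6 of the 12221 regions obtained when overlapping peaks of different samples were merged. HepG2 is a human hepatocellular carcinoma cell line. The cells were transfected with control siRNA (siControl) or siRNA against METTL3 (siMETTL3) and harvested 48 h later. There were 2 replicates of either treatment, and both an input and an immunoprecipitated library existed for every one of them. In m6A-seq, fragmented mRNA is pulled down with an anti-m6A antibody, and places where the pulled-down RNA exceeds the background are called as peaks. Peaks had been called in each immunoprecipitated sample separately, so that there were 4 lists. The knockdown was transient, and the METTL3 level of these libraries was not analysed here.

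m6A is the most abundant internal modification of mRNA. It is written on the nascent transcript by the METTL3-METTL14 methyltransferase, mostly in long internal exons and near stop codons, and it is bound by YTH domain proteins that affect the decay and the translation of the message. Hepatocytes devote much of their mRNA to proteins of the blood plasma. ALB encodes albumin, the main carrier and osmotic protein of plasma. AFP encodes alpha-fetoprotein, its fetal counterpart, which is made again by many liver tumors. APOB and APOA1 encode the structural proteins of low density and high density lipoproteins. FGA, FGB and FGG encode the chains of fibrinogen, the precursor of the blood clot. SERPINA1 encodes alpha-1-antitrypsin, an inhibitor of neutrophil elastase, and TF encodes transferrin, the iron carrier.

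For siControl, 6888 (replicate 1) and 8162 (replicate 2) peaks were listed, and for siMETTL3, 7138 (replicate 1) and 8577 (replicate 2). Each peak came with its number of tags (sequenced fragments), a score that is 10 times the negative log10 of its p-value, a fold enrichment over background and a false discovery rate (FDR). The lowest score in the lists was 50. A high FDR was common: its median over all peaks was 63.6% and 60.95% in siControl replicates 1 and 2. In siMETTL3 replicates 1 and 2 it was 72.04% and 54.35%. Library depth is unknown from these lists, and tags were counted over each sample's own peak. Tags are therefore given per kb of peak and placed among the peaks of the same list. The start, end and length of a gene are those of its window throughout.

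A listed m6A peak was found at 4 of the 9 genes and none at the other 5. No share over all genes could be set beside this count, because no hg19 annotation was used. Whether the count differs from that of other genes is therefore not known. ALB (chr4:74269972-74287129), APOA1 (chr11:116706467-116708338), FGA (chr4:155504280-155511918), FGG (chr4:155525286-155533902) and SERPINA1 (chr14:94843084-94857029) had no peak in any of the 4 samples. AFP (chr4:74301880-74321891), APOB (chr2:21224301-21266945), FGB (chr4:155484132-155493915) and TF (chr3:133464977-133497850) had a peak in at least 1 sample. In siControl replicate 1, all 4 of these genes had a peak. In siControl replicate 2 this was TF alone. siMETTL3 replicate 1 had no peak at any of the 9 genes, and siMETTL3 replicate 2 had peaks at AFP and TF. No gene had a peak in all 4 samples, and TF, with 3 samples, had its peaks at 3 different places. A peak's fold reflects pulled-down RNA over background, and in bulk cells fewer cells with a transcript and less of it per cell cannot be told apart. The absence of a listed peak does not show that a transcript was unmethylated or unexpressed, because the input libraries and the signal below the calling limit were not analysed here. The tags inside the listed peaks, 132 to 3251 per peak, show that reads were recovered at AFP, APOB, FGB and TF in the samples with peaks there.

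**Figure D1:**
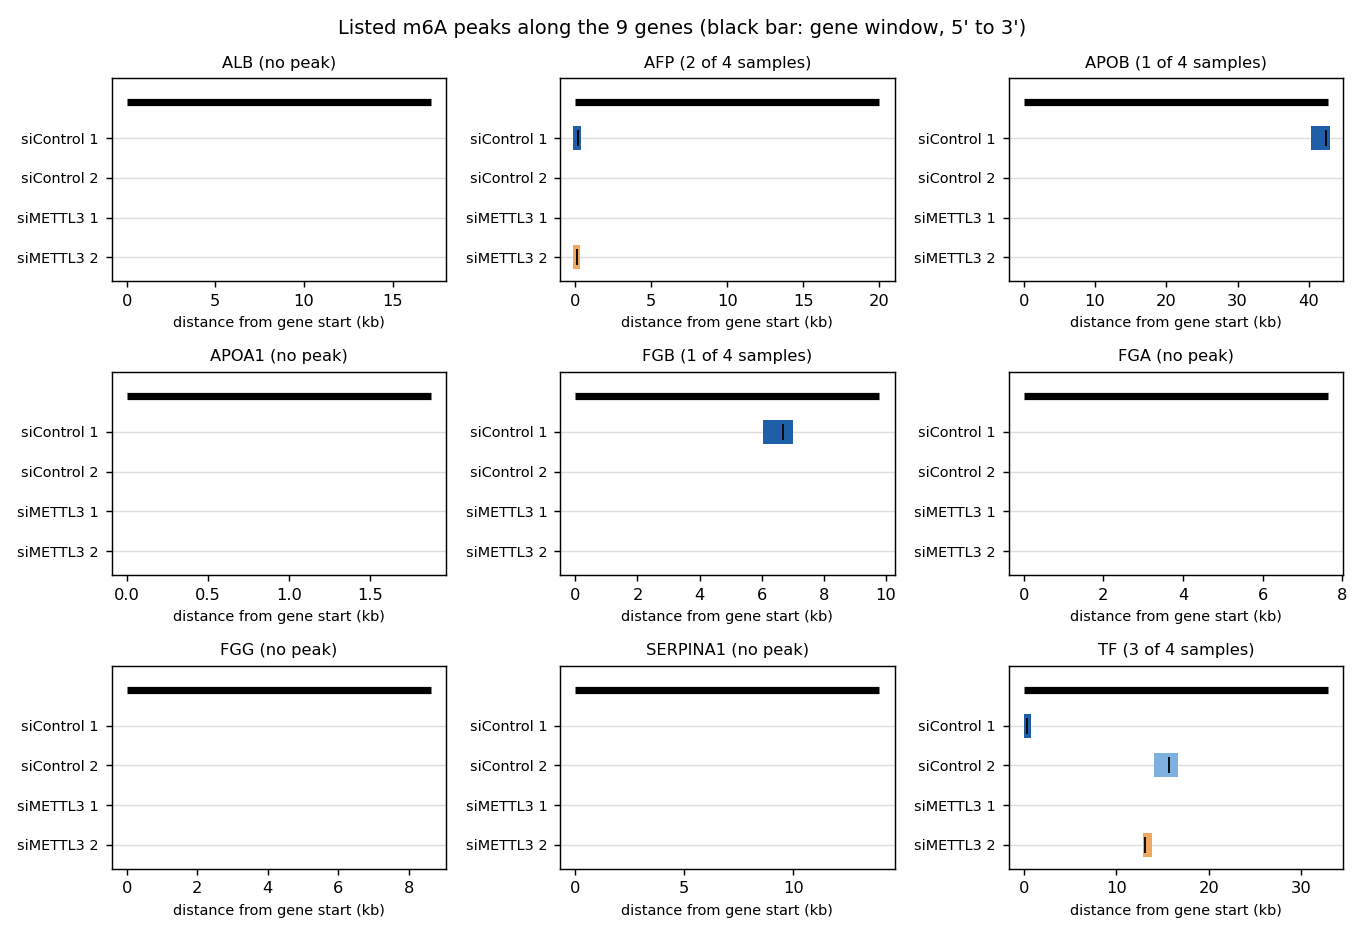
Listed m6A peaks along each gene, drawn from its 5′ to its 3′ end (x axis, distance from the gene start in kb; black bar, gene window). Each row is 1 sample, colored boxes are peaks and vertical ticks their summits; ALB, APOA1, FGA, FGG and SERPINA1 are empty, and the AFP boxes of 2 samples lie at the same place.

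The knockdown and control groups were compared in the number of these genes with a peak. It was 2.5 ± 2.12 in siControl (SD, n = 2) and 1 ± 1.41 in siMETTL3 (SD, n = 2), a difference of −1.5 genes that is smaller than the SD of the siControl replicates. The two-sided exact permutation test gave p = 0.667, and 2 samples against 2 cannot give a p below 0.333. Within same-numbered replicates the difference was −4 genes in replicate 1 and 1 gene in replicate 2, so the pairs moved in opposite directions. Without siControl replicate 1 the difference was 0 and 2 genes with a peak were left, AFP and TF. The labels do not say that replicates came from separate cultures, so this p measures the spread between samples, which may be technical.

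Of the 6 regions at the genes, 0 had a peak in both siControl replicates and in neither siMETTL3 replicate, against 5.20% of all regions. The reverse pattern, a peak in both siMETTL3 replicates and in neither siControl replicate, was also found in 0 of the 6, against 5.25% of all regions. With 6 regions, counts of 0 are near these backgrounds and are no result about the genes. No region at the genes had a peak in all 4 samples, compared with 31.7% of all regions. Accordingly, no fold enrichment at these genes could be compared between the groups. In 5 of the 6 regions a single sample had the peak, a pattern shown by 31.1% of all regions. The AFP region was the remaining one, with a peak in 1 siControl and 1 siMETTL3 sample, as in 9.18% of all regions.

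AFP was the gene at which the same place was called in 2 samples. The peak lay over the start of the gene. In siControl replicate 1 it covered chr4:74301749-74302260, from 131 bases before the gene start to 380 bases after it, with its summit 146 bases into the gene. In siMETTL3 replicate 2 it covered chr4:74301752-74302163, with its summit 83 bases into the gene. The left edges of the 2 peaks were within 3 bases of each other. Fold enrichment was 3.06 in siControl replicate 1 and 3.19 in siMETTL3 replicate 2, scores were 98.87 and 66.59, and the FDR was 77.16% and 80.33%. With 396 and 320 tags per kb, both peaks ranked high in their lists by tag density, at percentiles 91.6 and 91.2. By fold enrichment they were at percentiles 8.07 and 7.30. In siControl replicate 2 and siMETTL3 replicate 1 the nearest listed peak was 295684 and 295683 bases from the gene.

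ALB stands directly before AFP on chromosome 4 and is its closest relative among the 9 genes. No peak was listed over its start or body in any sample, and in siControl replicate 1 and siMETTL3 replicate 2 the nearest peak was the AFP peak, 14620 and 14623 bases beyond the end of ALB. The first 30 transcribed bases of both genes are shown because the AFP peaks covered the start of the AFP window while that of ALB had no peak. They are the RefSeq starts of GRCh38.p14 on the + strand, ALB at chr4:73404287-73404316 and AFP at chr4:73436221-73436250, and capitals mark matches to DRACH, the sequence context in which METTL3 methylates the A before the C. Only the transcript strand was searched, since m6A is read on the RNA.
ALB: ctagcttttctcttctgtcaaccccacacg
AFP: attgtgcttccaccactgccaaTAACAaaa
The AFP stretch held 1 match and the ALB stretch 0, and 33.6% of the 35116 listed starts of human genes held a match in their first 30 bases. In the first 50 bases AFP held 2 matches and ALB 0, and 49.6% of the listed starts held a match. The AFP peaks were 512 and 412 bases long, so these stretches are short beside them. The matches are a description of the sequence and no mapped m6A sites. The AFP window is 20012 bases long and the RefSeq gene 19954. The RefSeq starts were not placed on hg19 here, so the distance of the matches from the summits is not known.

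APOB carried the peak with the highest score of the 7, and it was listed in siControl replicate 1 alone. The gene runs on the − strand, and the peak, chr2:21224000-21226636, covered its 3′ end and 301 bases beyond it. The summit lay 195 bases before the gene end, at 99.5% of the gene's length. It held 3251 tags, or 1233 per kb, the highest tag density of the 6888 peaks in that list. Its fold enrichment of 2.08 was the 10th lowest of the same list. Its score of 570.29 ranked 230th, and its FDR of 5.65% was the lowest of the 7 peaks and the one value at or under 50%. In siControl replicate 2, siMETTL3 replicate 1 and siMETTL3 replicate 2 the gene had no peak, the nearest being 356409, 356389 and 430996 bases away.
Of the 230 peaks in siControl replicate 1 with a score at least as high, 98.7% were overlapped by a peak of siControl replicate 2, 94.8% by one of siMETTL3 replicate 1 and 97.8% by one of siMETTL3 replicate 2. The APOB peak was the 1 peak among these 230 with no overlap in any other list. In the other lists, 0 of the 408, 296 and 202 peaks with at least this score lacked an overlap elsewhere. Of the 66 peaks of siControl replicate 1 with at least 500 tags per kb and a fold of at most 2.5, 28.8% had no overlap in the other lists, compared with 9.83% of all its peaks. The lists did not share this direction. For the same kind of peak the share was 4.92% in siControl replicate 2, against 9.97% of all its peaks. It was 20.3% against 12.7% in siMETTL3 replicate 1 and 18.8% against 16.3% in siMETTL3 replicate 2. These differences were not tested. The limits on density and fold were not part of the original plan. The APOB peak is itself among the 66 and among those without overlap, so this class is no independent background for it.

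TF had a peak in 3 samples, but the 3 peaks did not overlap. Its window holds 32874 bases, whereas the RefSeq gene of GRCh38.p14 spans 134644 bases, so positions and the number of peaks refer to the window alone. In siControl replicate 1 the peak lay at the window start, chr3:133464998-133465789, with its summit 325 bases into the window, a fold enrichment of 4.03 and 307 tags per kb. In siMETTL3 replicate 2 it lay at chr3:133477869-133478833, with the summit 13146 bases into the window, a fold of 3.78 and 382 tags per kb. In siControl replicate 2 it lay at chr3:133479074-133481610, with the summit 15742 bases into the window, a fold of 3.09 and 218 tags per kb. The last 2 peaks were separated by 240 bases, so that peaks of a control and a knockdown sample were close together in the middle of the window, whereas the peak at the start was 12079 bases from the nearer of them. All 3 had low scores, 58.12, 72.77 and 70.62. Their FDR was 100%, 75.04% and 99.75%, against medians of 63.6%, 54.35% and 60.95% in the same lists. siMETTL3 replicate 1 had no peak in the TF window, the nearest being 577201 bases away.

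Among the fibrinogen genes, which lie next to each other on chromosome 4 in the order FGB, FGA and FGG, a peak was listed for FGB in siControl replicate 1. It covered chr4:155490184-155491150 and had its summit at 68.2% of the gene's length, 3112 bases before the gene end. It held 530 tags, or 548 per kb, at percentile 97.5 of its list. Its fold enrichment of 2.58 was at percentile 1.97, its score was 59.75 and its FDR 100%. No peak was listed at FGA or FGG, whose closest peak in siControl replicate 1 was the FGB peak, 13130 and 34136 bases away. In siControl replicate 2 the closest peak to the cluster was 12441 bases before the start of FGB, with a fold enrichment of 4.64 and a score of 70.97. In the siMETTL3 replicates 1 and 2 the nearest peak was 958409 and 958536 bases from FGB.

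The 7 peaks, 2 of them from the same AFP region, resembled each other in 2 measures that the choice by gene window did not use. Both measures may depend on the peak calling, since no peak with a score below 50 was listed, and this was not tested. All lay in the upper part of their lists by tag density, between percentiles 65.4 and 100 with a median of 91.6. All lay in the lower part by fold enrichment, between percentiles 0.145 and 35.2 with a median of 7.30. Their fold enrichment ranged from 2.08 to 4.03, with a median of 3.09, whereas the median of all peaks was 4.50, 4.60, 4.38 and 4.85 in the 4 lists. Their tag density ranged from 218 to 1233 tags per kb, against list medians of 162, 168, 178 and 139. Across all peaks of a list, denser peaks also had a lower fold, with Pearson's r of the log2 values between −0.436 and −0.372 in the 4 lists (6888 to 8577 peaks, which are not independent and share 1 library each). Among peaks with at least 300 tags per kb, a limit outside the original plan, the median fold was 3.51 and 3.65 in siControl replicates 1 and 2. In siMETTL3 replicates 1 and 2 it was 3.52 and 3.51. Of the peaks at the genes above this density, AFP (3.06 and 3.19), APOB (2.08) and FGB (2.58) lay below these medians. The TF peaks of siControl replicate 1 (4.03) and siMETTL3 replicate 2 (3.78) lay above them. The part of this trend in the values of the 7 peaks was not tested. Scores other than that of APOB were between 58.12 and 98.87, below the list medians of 109 to 121.

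**Figure D2:**
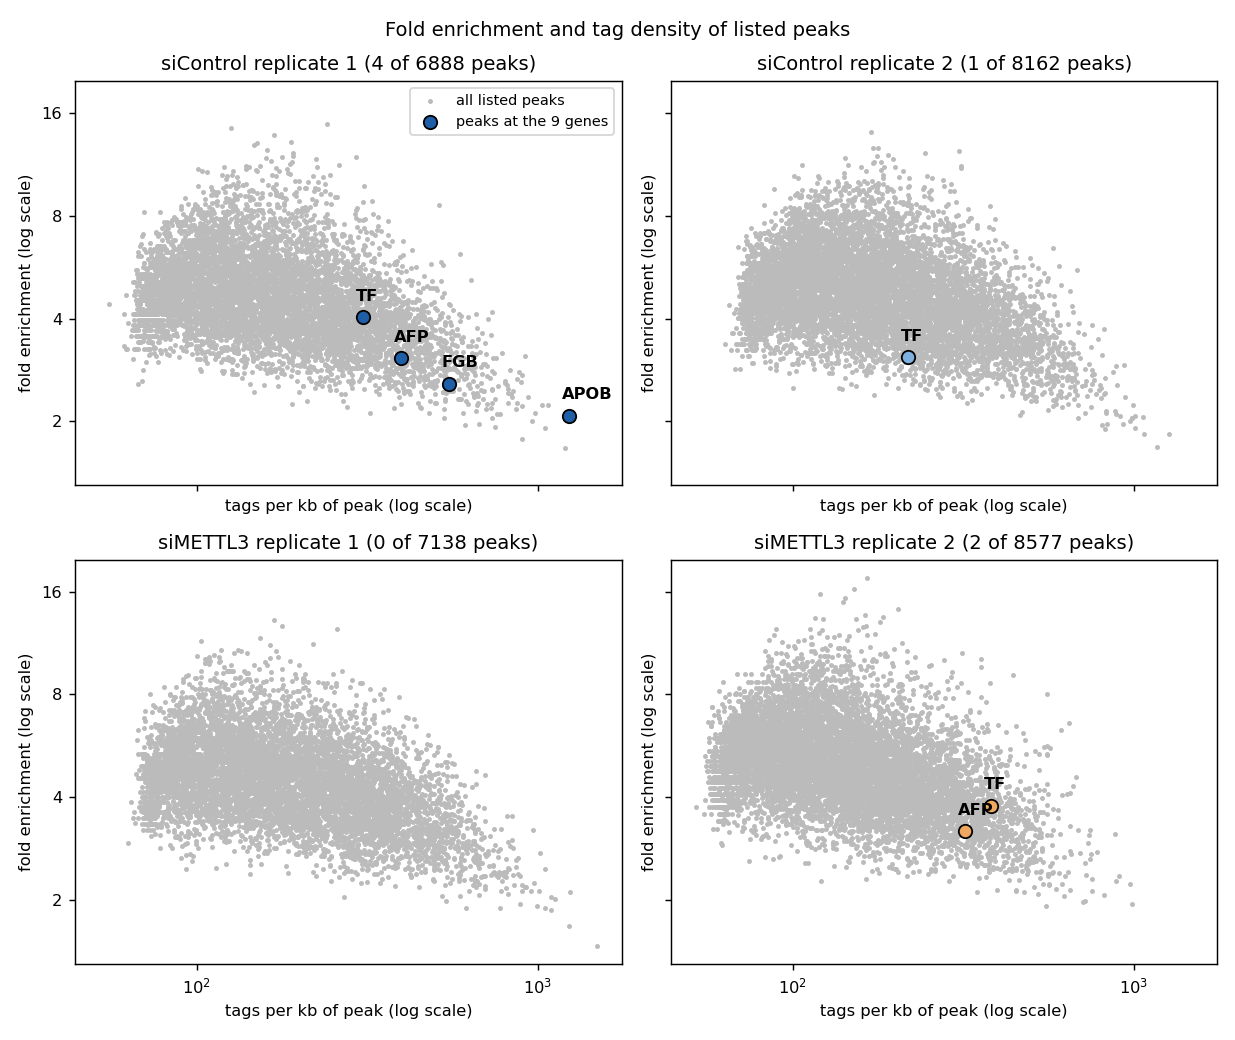
Fold enrichment (y axis, log scale) against tags per kb of peak (x axis, log scale) for all listed peaks of each sample (grey points) and the peaks at the 9 genes (large colored points with gene names). The 7 named points lie toward the dense, low-fold side of the cloud, and APOB in siControl replicate 1 has the highest density of its panel, 1233 tags per kb.

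Recurrence in the lists is given by score for the other 6 peaks. In the 4 lists, 60.9% to 75.8% of the peaks with a score from 50 to 70 were overlapped by a peak of any other list and 11.2% to 27.9% by peaks of all 3 others. From 70 to 100 these shares were 78.2% to 87.1% and 24.2% to 42.5%. Of the 6 peaks at the genes with a score under 100, the 2 AFP peaks overlapped each other, and the FGB peak and the 3 TF peaks overlapped no peak of another list.

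**Figure D3:**
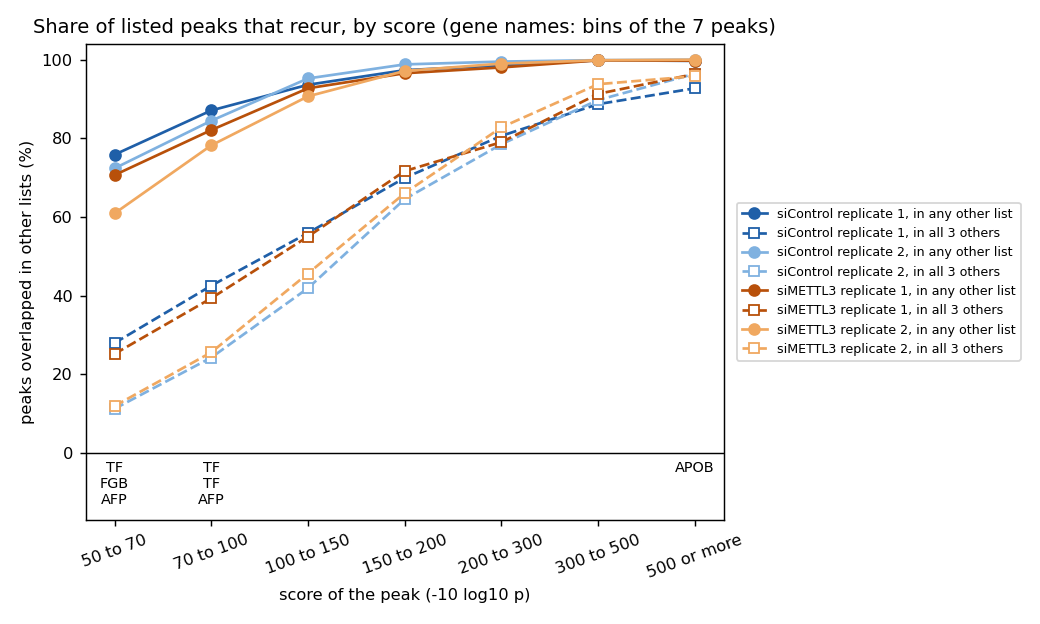
Share of listed peaks overlapped by a peak in any other list (filled circles, solid lines) or in all 3 others (open squares, dashed lines), in percent, by score; colors are the 4 samples. Gene names under the axis give the score bin of the 7 peaks; APOB is in the highest bin, where at least 99.7% of peaks of each list recurred in another list.

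The genes without peaks differed in how close listed peaks came to them. APOA1, the shortest window, with 1872 bases, had peaks nearby in all 4 samples. A region 5632 bases upstream of its start was called in all 4, with fold enrichments of 6.02 and 5.06 for siControl and of 4.72 and 5.37 for siMETTL3. A second region 19788 bases upstream was also called in all 4, with fold enrichments of 4.68 and 4.71 in siControl and 6.02 and 4.48 in siMETTL3. The siControl and siMETTL3 values overlapped at the second region. At the first region the siMETTL3 values fell between or below the siControl values, and the groups overlapped as well. A region 13676 bases downstream of APOA1 was called in siControl replicate 2 and in siMETTL3 replicates 1 and 2, with fold enrichments of 3.68, 3.31 and 2.59, and was not listed in siControl replicate 1. The neighbors of APOA1 in the RefSeq gene order are APOC3 and SIK3, and the regions were not assigned to a gene. SERPINA1, in contrast, had no listed peak closer than 56998 bases in siMETTL3 replicate 1 and 85830 bases in the other samples.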

How the data were processed

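RNA of HepG2 cells was immunoprecipitated with an anti-m6A antibody and sequenced by the authors on an Illumina HiSeq2500. The submitters' processing notes name CASAVA 1.8.2, MACS 1.4.2 and hg19; the aligner is not given in the sources used here. The authors deposited 1 peak list per immunoprecipitated sample, holding tags as whole-number counts not scaled to depth, a score (10 times the negative log10 of the p-value), a fold enrichment as a linear ratio and an FDR in percent. Positions were read as 1-based. The deposited columns for position, length and summit were used as given.

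Peaks were set against the hg19 windows of the 9 genes, and peaks sharing at least 1 base were merged into regions over the whole series. Percentiles are ranks within a sample's list. All 9 genes were to be named; genes and lists were chosen with earlier results of these data known. Gene orientation is background knowledge, and the 7 genes with a start in the RefSeq promoter table (GRCh38.p14) had the same strand there. Read on GRCh38 positions, the genes held 0 peaks. The merging of peaks into regions, with the samples of each region, and the exact permutation test were tested on simulated data. The overlap of peaks with gene windows was not tested in this way. A limma fit across regions and tests per gene, planned for peaks called in all 4 samples, were not run, since the genes had none. Counts over other liver genes were not made, since no hg19 annotation was used. Python 3.11.15, numpy 2.4.6, pandas 2.3.3 and matplotlib 3.10.9 were used.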

Additional observations from a re-analysis of the deposited data

How the results depend on the processing

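The number of genes with a peak was 4 with all peaks, 3 with a score of at least 70 and 4 when every list was cut to an equal number of its best-scoring peaks or with the summit inside the window. It fell to 1, APOB, with an FDR of at most 50%, and ranged from 2 (without siControl replicate 1) to 4 with each sample left out. The FDR limit also reduced the regions of the whole series, from 12221 to 5321, and those at the genes from 6 to 1. The difference in genes with a peak (siMETTL3 minus siControl) was −1.5, ranged from −3 to 0 with each sample left out, and was −1.5 with the replicate number as a block, where the pairing rests on the shared numbers alone. The sample omissions and the replicate block for these counts were added after the counts had been seen. Regions with a peak in a single sample numbered 5 of 6, against 31.1% of all regions. They numbered 4 of 4 with a score of at least 70 (31.8% of all regions). With an FDR of at most 50% they numbered 1, where 1 region remained (32.9%). When peaks up to 500 bases apart were merged they numbered 3 of 5 (30.2%). That setting, which joined 2 TF peaks, was chosen after the TF distances had been seen. Regions lost in siMETTL3 ranged from 0 to 3 and regions gained from 0 to 1 with 1 sample left out, where a group is then 1 sample. Lost were 1 of 3 regions without siControl replicate 1 (12.6% of all regions) and 3 of 5 without siControl replicate 2 (11.5%), and gained was 1 of 6 without siMETTL3 replicate 1 (18.1%). Under the other settings run these 2 counts and that of regions in all 4 samples were 0. With all 4 samples kept, 5.09% to 6.17% of all regions were lost and 4.49% to 5.37% gained. Those with a peak in all 4 samples were 25.5% to 32.6% of all regions. In the sample omissions with a count of 0, 8% to 14.2% of all regions were lost or 7.36% to 14.3% gained. The other settings intended for the fits on fold enrichment and tag density and of the tests per gene were not run, because no region of these genes was called in all 4 samples. The unknown library depth limits every statement on an absent peak.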
